A study of Homo sapiens with 4 samples.

Results

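The BCL2 family sets whether a cell keeps its mitochondria intact. The 10 family genes described here were taken by symbol from a table of 60671 gene rows. They comprised 3 anti-apoptotic genes (BCL2, BCL2L1 and MCL1), 2 effectors (BAX and BAK1) and 5 BH3-only genes (BBC3, PMAIP1, BCL2L11, BID and BAD), so that 3 members opposed apoptosis and 7 promoted it. RNA came from SK-N-BE(2), a MYCN-amplified neuroblastoma cell line of human origin. The cells carried either shNC, the control hairpin, or shMETTL14, a hairpin against the m6A writer subunit METTL14, with 2 libraries each. Per the study's methods, hairpins were delivered by lentivirus and the infected cells were selected with puromycin to give stable lines, and all groups shared that procedure. The labels name neither the hairpin used nor separate cultures, so p-values measure only the spread between these libraries, which may be technical. Loss of METTL14, other effects of the hairpin and differences between the infected lines cannot be told apart in this design.

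Anti-apoptotic family proteins hold BAX and BAK in check at the outer mitochondrial membrane. BH3-only proteins are the sensors: they occupy the groove of the anti-apoptotic proteins, and some of them also engage BAX and BAK directly. Once freed, BAX and BAK form pores, cytochrome c leaves the mitochondrion, and the apoptosome activates caspases. In neuroblastoma, BCL2 and MCL1 are known survival factors and amplified MYCN is known to sensitise cells to apoptosis. Much of the control of this family acts on the proteins, through binding, phosphorylation and degradation, which RNA counts do not show. Gene-level counts also add up splice forms that differ in function, such as the long and short forms of BCL2L1 and MCL1.

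Between 18925786 and 19886214 reads per library were assigned to genes. METTL14 itself was read 753 and 754 times in shNC but 303 and 321 times in shMETTL14, and both knockdown libraries lay below both controls. All 11 neuroblastoma markers were detected, with 1484 to 27384 counts per library, while 8 of 10 markers of blood, vessel, epithelial, liver and glial cells had at most 12 counts in any library, KRT5 none. The exceptions were EPCAM, with 48 to 93 counts and called lower, and PTPRC, with 29 to 40. The summed level of the neuroblastoma markers was 4703 and 4606 CPM in shNC and 4296 and 4276 CPM in shMETTL14, and 8 of them were lower and 3 higher in the knockdown, all 11 called. The other markers summed to 7.12 and 7.78 CPM in shNC and to 5.77 and 5.04 CPM in shMETTL14. The part of these shifts in the results below was not tested. CPM are read counts relative to library size, where TMM scaling first adjusts that size for differences in composition.

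Within the family, the anti-apoptotic genes differed in direction between the groups, and both effectors were higher in shMETTL14. BCL2 fell to 71.3% of its control level, whereas BCL2L1 and MCL1 rose to 116% and 115%. BAX, BAK1 and BAD rose to 128%, 134% and 145%. Smaller changes were called in BID, BCL2L11 and PMAIP1, the last of them a decrease, and BBC3 was not called. In all, 9 of 10 members were called at an edgeR adjusted p under 0.05, 7 higher and 2 lower. This count has to be read against a broad difference between the groups: 52.5% of the 16309 tested genes were called, 27.2% as higher and 25.3% as lower. Of the 8060 tested genes with a mean of at least 20 CPM, which include every member but BBC3, 66.4% were called, 40.4% as higher and 26.0% as lower. With DESeq2, which called 36.9% of all tested genes, 5 of 10 members were called (BCL2, MCL1, BAX, BAK1 and BAD). With upper quartile scaling, which called 52.2% of all tested genes, 6 members were called, and with library size alone, at 52.0% of all genes, 7 were. Limma called 9 members and 52.3% of all genes. Leaving out shNC library 2 or either shMETTL14 library left fewer members called, and fewer genes over the whole table too. The member groups did not overlap in 9 of 10 genes, against 75.5% of all tested genes. Reads come from bulk RNA, so fewer cells expressing a gene and less RNA per cell cannot be told apart.

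**Figure D1:**
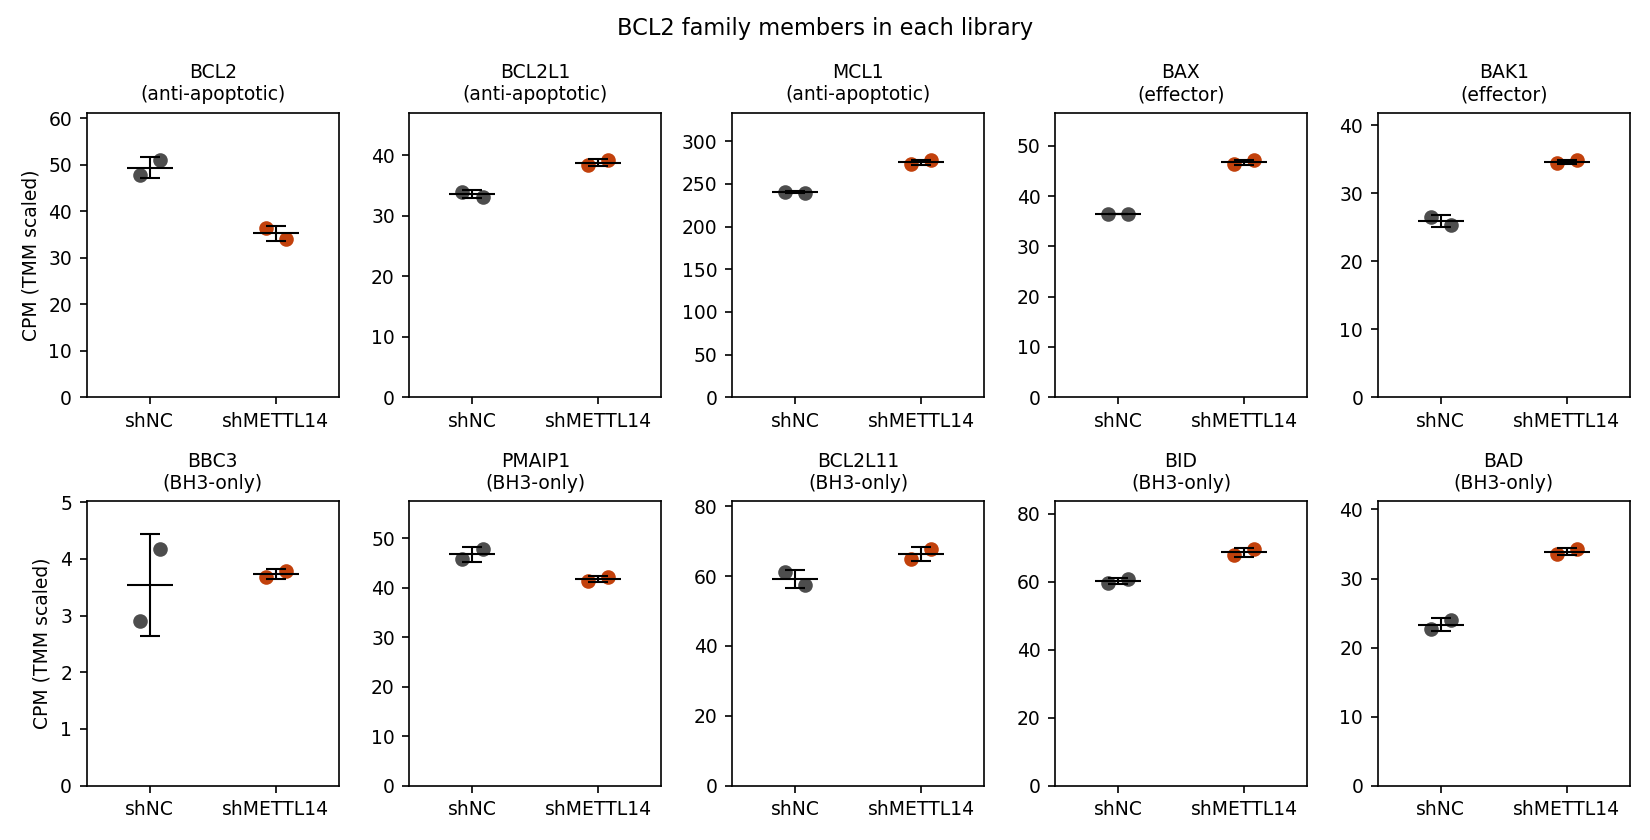
Expression of the 10 members, in CPM after TMM scaling (vertical axes start at 0 and differ between panels), in the 2 shNC and the 2 shMETTL14 libraries. Points are libraries, horizontal bars are means and error bars are SD (n = 2). The groups are separate in every panel except that of BBC3, with BCL2 and PMAIP1 lower and the other 7 higher in shMETTL14.

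Because METTL14 acts through m6A, 1 coding transcript per member was searched for GGACT. This is the core of the most favoured m6A consensus, here on the RNA strand. Other transcripts, which can differ in stop codon and 3′ UTR, were not searched. For BAX and BCL2L11 the searched transcript has 793 and 1522 bases, beside 2587 and 6658 bases of merged exons. The window held the stop codon and 100 bases on either side, 203 bases in all, where m6A is known to concentrate. At least 1 copy lay in this window in 6 of 10 members, compared with 22.7% of the windows of 12109 tested coding genes. The sites are shown for the reader to compare members that rose, fell or did not pass the test, in lower case with GGACT in capitals (GENCODE 29, GRCh38).
MCL1, 3′ UTR, chr1:150577294-150577314, minus strand: atgcagttGGACTccaagctg
BAX, 3′ UTR, chr19:48961645-48961665, plus strand: gctgccttGGACTgtgttttt
BAK1, 3′ UTR, chr6:33573747-33573767, minus strand: ccctgcctGGACTtaagcgaa
PMAIP1, 3′ UTR, chr18:59902769-59902789, plus strand: gcatgaggGGACTccttcaaa
BID, running into the stop codon, chr22:17735574-17738019 across an intron, minus strand: aatgggatGGACTgaacggac
BBC3, coding sequence, chr19:47221843-47221863, minus strand: tcatcatgGGACTcctgccct
BBC3, 3′ UTR, chr19:47221761-47221781, minus strand: gacgtcagGGACTcggggggc
BBC3, 3′ UTR, chr19:47221710-47221730, minus strand: agcgcgggGGACTttctctgc
BCL2, BCL2L1, BCL2L11 and BAD had no copy in this window. Each of these genes had copies elsewhere in the transcript searched. BCL2, with the largest decrease among the members, had 2 in the 5′ UTR and 1 in the 3′ UTR. BAD, with the largest increase, had 2 in the coding sequence. The members with a copy in the window included 4 that rose, PMAIP1 that fell and BBC3 that was not called. Whether the motif bears on these changes was not tested. Over the whole transcript, BCL2 had the fewest copies per kilobase, 0.40, and BBC3 the most, 3.81. BAD had 1.73, and the median of tested coding genes was 0.93. A match in sequence says nothing of methylation, which these libraries did not measure.

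The anti-apoptotic genes were examined in turn. BCL2 (ENSG00000171791; chromosome 18, 63123346 to 63320128, minus strand) encodes the founding member of the family, which binds BIM, BAD and PUMA. It had 952 and 975 counts in shNC and 712 and 655 in shMETTL14, so both knockdown libraries lay well below both controls. Its mean level went from 49.3 ± 2.23 to 35.2 ± 1.65 CPM (SD, n = 2 each), a log2 fold change of -0.49 (SE 0.0685, edgeR adjusted p 3.4e-06). Among tested genes with at least 20 CPM, 16.1% had a larger absolute change. BCL2 was called lower in all 12 alternative fits, between -0.55 and -0.43.

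MCL1 (ENSG00000143384; chromosome 1, 150574551 to 150579738, minus strand) encodes a short-lived protein that restrains BAK in particular and is neutralised by NOXA. Its counts were 4800 and 4592 in shNC and 5347 and 5341 in shMETTL14, the highest of any member. MCL1 rose from 240.3 ± 0.719 to 275.3 ± 3.13 CPM (SD, n = 2 each), a log2 fold change of 0.20 (SE 0.0392, edgeR adjusted p 2.3e-04). The change is small but exceeded the spread between replicates, and it was called in all 12 alternative fits. BCL2L1 (ENSG00000171552; chromosome 20, 31664452 to 31723989, minus strand), which encodes BCL-xL, had 677 and 633 counts in shNC and 752 and 753 in shMETTL14. On the log2 scale it changed by 0.21 (SE 0.0711, edgeR adjusted p 0.017), close to that of MCL1. The BCL2L1 call was lost under upper quartile scaling at 0.14, with library size alone at 0.16 and with DESeq2 at 0.21. It was also lost without shNC library 2, at 0.20 (edgeR adjusted p 0.0623), and without shMETTL14 library 2, at 0.21 (edgeR adjusted p 0.0737). The antisense RNA ABALON shares 1424 of the 3314 exonic bases of BCL2L1 and had at most 4 counts in a library. As the strand setting of the counting is not given, the effect of this overlap on the BCL2L1 level was not tested.

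The effectors moved together. BAX (ENSG00000087088; chromosome 19, 48954815 to 48961798, plus strand), which is largely cytosolic until activated, had 727 and 699 counts in shNC and 907 in each shMETTL14 library. The control libraries were nearly equal at 36.5 CPM each, and the knockdown libraries stood at 46.3 and 47.1 CPM. This gave a log2 fold change of 0.36 (SE 0.0659, edgeR adjusted p 9.9e-05). BAK1 (ENSG00000030110; chromosome 6, 33572547 to 33580293, minus strand), whose protein resides in the mitochondrial outer membrane, had 529 and 484 counts in shNC and 673 and 670 in shMETTL14. It rose from 25.9 ± 0.894 to 34.6 ± 0.312 CPM (SD, n = 2 each), a log2 fold change of 0.42 (SE 0.0766, edgeR adjusted p 9.3e-05). Both effectors were called higher in all 12 alternative fits, BAX between 0.29 and 0.37 and BAK1 between 0.35 and 0.45.

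BAD rose most of all members, in all 12 alternative fits too. BAD (ENSG00000002330; chromosome 11, 64269830 to 64284704, minus strand) encodes a sensitiser that binds BCL2 and BCL-xL but not MCL1, and that AKT phosphorylation hands over to 14-3-3 proteins. Counts rose from 451 and 460 in shNC to 656 and 660 in shMETTL14, with no overlap. BAD thus went from 23.3 ± 0.986 to 33.9 ± 0.558 CPM (SD, n = 2 each), a log2 fold change of 0.54 (SE 0.0788, edgeR adjusted p 5.5e-06). Of tested genes with at least 20 CPM, 12.7% had a larger absolute change. The call held in all 12 alternative fits, between 0.47 and 0.59. BAD shares 404 of its 1708 exonic bases with GPR137 on the opposite strand, and the strand setting of the counting is not given. GPR137 had 324 and 292 counts in shNC and 320 and 334 in shMETTL14, and was not called at 0.10 (edgeR adjusted p 0.43).

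The called changes in the remaining BH3-only genes were small. BID (ENSG00000015475; chromosome 22, 17734138 to 17774770, minus strand), which links death receptors to mitochondria once caspase-8 has cut its protein, had 1190 and 1166 counts in shNC and 1328 and 1342 in shMETTL14. On the log2 scale it changed by 0.19 (SE 0.0534, edgeR adjusted p 0.005), and the call was lost under upper quartile scaling and with DESeq2. BCL2L11 (ENSG00000153094; chromosome 2, 111119378 to 111168447, plus strand) encodes BIM, which binds every anti-apoptotic protein of the family. It had 1217 and 1098 counts in shNC and 1272 and 1305 in shMETTL14, and the nearest libraries of the 2 groups stood at 61.1 and 65.0 CPM. This corresponded to 0.16 on the log2 scale (SE 0.0561, edgeR adjusted p 0.017). It was not called under upper quartile scaling (0.097), library size alone (0.12) or DESeq2 (0.16), nor without shNC library 2 (0.13) or without shMETTL14 library 2 (0.14). The noncoding MIR4435-2HG overlaps BCL2L11 on the opposite strand and was level between groups, with a log2 fold change of 0.00027 (edgeR adjusted p 0.998).

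PMAIP1 (ENSG00000141682; chromosome 18, 59899948 to 59904306, plus strand) encodes NOXA, which binds MCL1 and promotes its degradation. It was the only pro-apoptotic member called lower. Counts were 912 and 917 in shNC and 809 and 812 in shMETTL14, which leaves 89.2% of the control level. On the log2 scale this was -0.16 (SE 0.0646, edgeR adjusted p 0.037), and the call was not stable. It was lost with DESeq2 at -0.17, without the low-count filter at -0.15, without shNC library 2 at -0.13, without shMETTL14 library 1 at -0.15 and without shMETTL14 library 2 at -0.17. BBC3 (ENSG00000105327; chromosome 19, 47220822 to 47232766, minus strand), which encodes the p53 target PUMA, was the lowest member, with 58 and 80 counts in shNC and 72 and 73 in shMETTL14. The knockdown libraries lay between the controls. The fitted value was 0.08 on the log2 scale (SE 0.219, edgeR adjusted p 0.79), and the 95% interval from -0.38 to 0.53 does not show that BBC3 was level. Leaving out shNC library 1 turned the value to -0.17, and leaving out shNC library 2 gave 0.36, neither called.

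**Figure D2:**
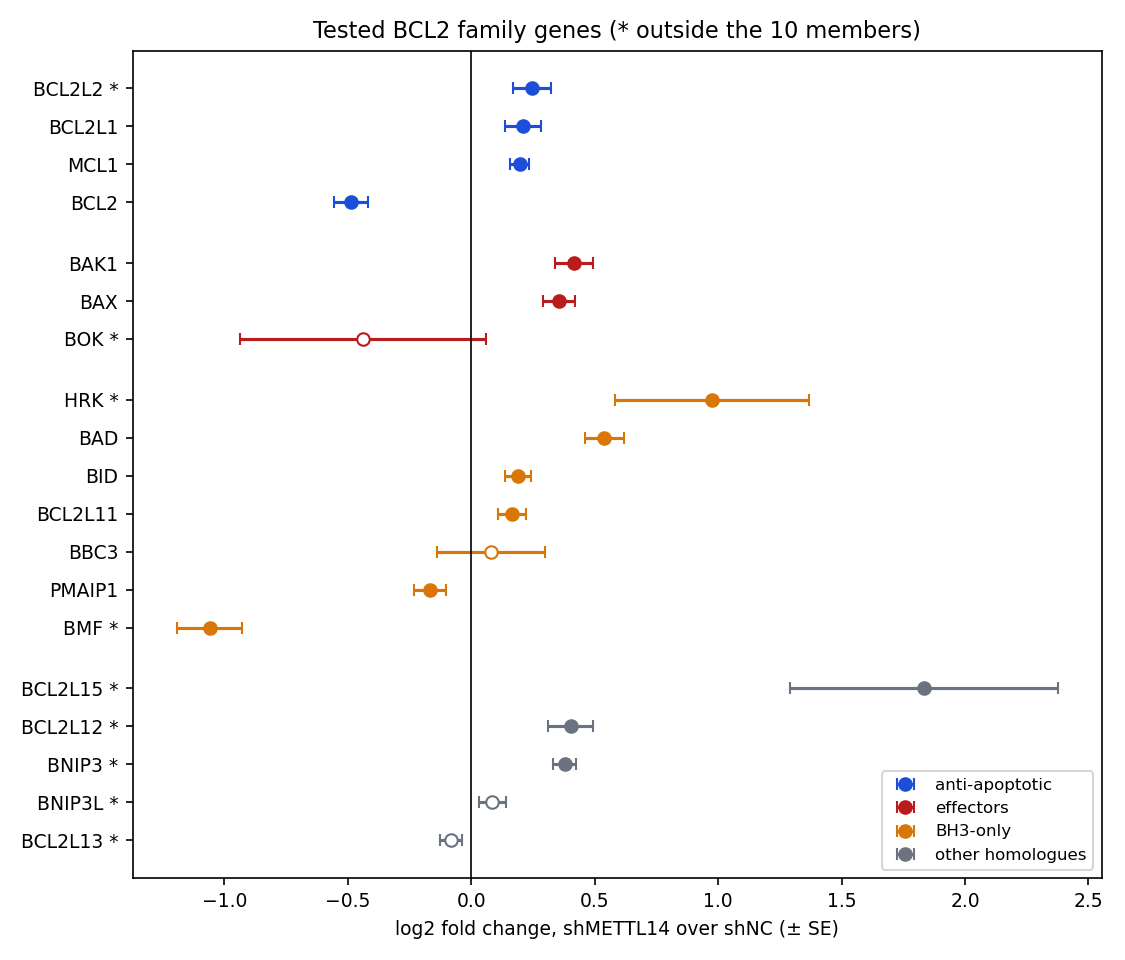
Log2 fold change of shMETTL14 over shNC for the tested BCL2 family genes, with SE bars, grouped and coloured by role. Filled points had an edgeR adjusted p under 0.05, open points did not, and asterisks mark genes outside the 10 members. BCL2 lies apart from the other anti-apoptotic genes at -0.49, and BMF is the lowest gene at -1.06.

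Anti-apoptotic and pro-apoptotic members were then compared as sides. The median log2 fold change was 0.20 over the 3 anti-apoptotic members and 0.19 over the 7 pro-apoptotic ones, where the median of all tested genes was -0.00095. The difference between the sides, anti-apoptotic minus pro-apoptotic, was 0.0062. Each median is the value of a single gene, MCL1 and BID, so the size of the fall in BCL2 has no weight in it. Over pairs of a shMETTL14 and a shNC library, which share libraries, the difference had an SD of 0.0887. It therefore does not show that the sides moved alike. Without shNC library 2 it was -0.17, a fit in which BBC3 stood at 0.36. On each side, members moved both ways: BCL2 fell while MCL1 and BCL2L1 rose, and PMAIP1 fell while 5 pro-apoptotic genes rose.

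Ratios taken within a library do not depend on how libraries are scaled. The count ratio of BCL2 to BAX was 1.31 and 1.39 in shNC and 0.785 and 0.722 in shMETTL14, a mean of 55.7% of the control. It was the widest shift of the 5 pairs computed. BCL2 to BCL2L11 gave 0.782 and 0.888 in shNC and 0.560 and 0.502 in shMETTL14. The ratio of BCL2L1 to BAX moved less, from 0.931 and 0.906 to 0.829 and 0.830. That of MCL1 to BCL2L1 overlapped between groups, at 7.09 and 7.25 against 7.11 and 7.09, so these anti-apoptotic genes kept their proportion within the spread of the libraries. In contrast, MCL1 to PMAIP1 rose from 5.26 and 5.01 to 6.61 and 6.58. The summed counts of the anti-apoptotic members were 1.26 times those of the pro-apoptotic members in both shNC libraries, and 1.19 and 1.17 times in the shMETTL14 libraries. Summed per kilobase of exon, the ratios were 0.833 and 0.817 in shNC and 0.790 and 0.782 in shMETTL14. With 2 libraries a group, an exact two-sided permutation test cannot go below a p of 0.333, so the ratios are given as values without a test.

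**Figure D3:**
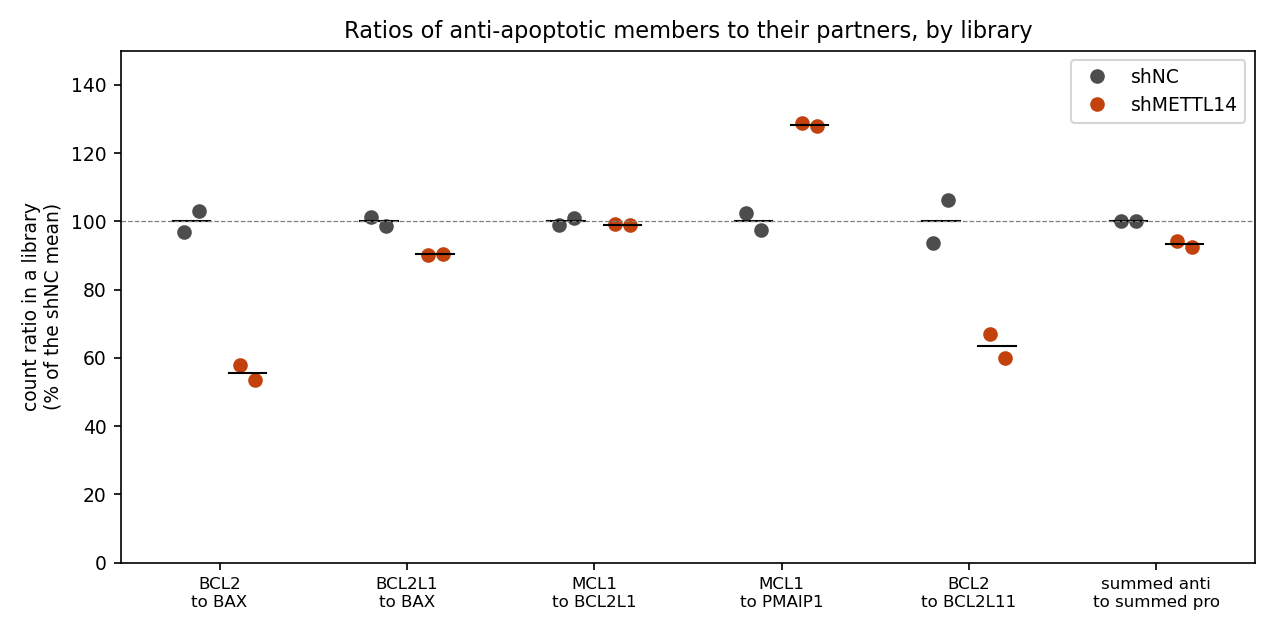
Count ratios of member pairs, and of summed anti-apoptotic to summed pro-apoptotic members, in each library, as a percentage of the shNC mean. Points are libraries and horizontal bars are group means (n = 2). BCL2 to BAX and BCL2 to BCL2L11 drop furthest, to 55.7% and 63.6%, MCL1 to PMAIP1 rises to 128%, and MCL1 to BCL2L1 overlaps.

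Levels can be compared between genes only per length, here as RPKM, the CPM per kilobase of merged exons. MCL1 had the highest level in shNC at 55.0 ± 0.164 RPKM (SD, n = 2), followed by PMAIP1 at 20.9 ± 0.674. BAX, BAD and BID came next at 14.1, 13.7 and 13.6 RPKM, with BAD within the spread of both of its neighbours. BAK1 (11.7), BCL2L1 (10.1) and BCL2L11 (8.89) followed. BCL2 stood at 4.19 ± 0.190 and BBC3 at 1.11 ± 0.282 RPKM. In shMETTL14, BAD moved up to 19.8 ± 0.327 RPKM, above PMAIP1 at 18.7 ± 0.276, and BCL2 stood at 2.99 ± 0.140. The share of MCL1 in the summed anti-apoptotic level per kilobase was 79.4% and 79.3% in shNC and 81.0% and 81.2% in shMETTL14, while that of BCL2 went from 5.85% and 6.26% to 4.01% and 3.70%. The order depends on the length used. With the length of the principal transcript, MCL1 remained at the top (61.1 RPKM in shNC) and BCL2 and BBC3 at the bottom (6.61 and 1.93), but BAX and BCL2L11 ranked above PMAIP1, at 46.0 and 38.9 against 24.0 RPKM.

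The family holds 13 further genes on the list used, of which 9 could be tested, and 6 were called, 5 higher and 1 lower, where 52.5% of all tested genes were called, 27.2% as higher and 25.3% as lower. BCL2L2, which encodes the anti-apoptotic BCL-w, had 647 and 589 counts in shNC and 768 and 688 in shMETTL14, a log2 fold change of 0.25 (SE 0.0760, edgeR adjusted p 0.0097). Its call was lost under upper quartile scaling (0.18) and DESeq2 (0.24), without shNC library 2 (0.21) and without shMETTL14 library 1 (0.18). The gene shares exonic bases with PPP1R3E on the opposite strand, which was called lower at -0.34 (edgeR adjusted p 0.0225). It also shares them with BCL2L2-PABPN1 on the same strand, which had at most 6 counts in a library. The effect of these overlaps on the BCL2L2 level was not tested. BMF, a BH3-only gene whose protein is held at the cytoskeleton, fell furthest of the family. Counts were 287 and 238 in shNC and 135 and 115 in shMETTL14, or -1.06 on the log2 scale (SE 0.132, edgeR adjusted p 6.6e-07), and it was called in all 12 alternative fits. HRK, a BH3-only gene of neurons, had 13 and 14 counts in shNC and 26 and 27 in shMETTL14. The log2 fold change of HRK was 0.98 (SE 0.393, edgeR adjusted p 0.042), but leaving out any 1 of the 4 libraries ended the call, at values between 0.89 and 1.06, as did upper quartile scaling, library size alone and DESeq2.

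Among the remaining homologues, BNIP3, whose protein acts in mitophagy, rose by 0.38 on the log2 scale, from 1969 and 2055 counts to 2635 and 2564 (SE 0.0475, edgeR adjusted p 7.1e-07). BCL2L12 had a log2 fold change of 0.40 (SE 0.0919, edgeR adjusted p 8.6e-04), and it shares exonic bases with IRF3, which was not called at 0.085 (edgeR adjusted p 0.547). BCL2L15 rested on few reads, 10 and 2 in shNC against 20 and 23, with a log2 fold change of 1.83 (SE 0.543, edgeR adjusted p 0.0072). That value was 1.14 without shNC library 2, 1.73 without shMETTL14 library 2 and 1.86 with DESeq2, none of them called, and 3.32 without shNC library 1. BNIP3L (0.09), BCL2L13 (-0.08) and the effector homologue BOK (-0.44, SE 0.496, 8 to 14 counts) were not called, although upper quartile scaling and library size alone called BCL2L13 lower, at -0.15 and -0.13. Reads were absent or at most 3 per library for BCL2A1, BCL2L10, BIK and BCL2L14, at or under the floor of 3 counts used here, so changes in them were not detectable at this depth. Over all 19 tested family genes, 15 were called, 12 higher and 3 lower (BCL2, PMAIP1 and BMF), beside 52.5% called among all tested genes and 66.4% among those with at least 20 CPM.

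Downstream of the family lies the machinery that BAX and BAK release or activate. Of 5 genes listed for cytochrome c, the apoptosome and caspases, 3 were called higher and 0 lower by edgeR, with 0 lower also at an unadjusted p under 0.05 and by DESeq2 and limma. The list median was 0.37. The share called was near that of all tested genes, 52.5%, or 66.4% with at least 20 CPM. CYCS, which encodes cytochrome c, had 3509 and 3299 counts in shNC and 6013 and 6073 in shMETTL14, up by 0.84 on the log2 scale (SE 0.0404, edgeR adjusted p 2.1e-13). CASP6 had 212 and 201 counts in shNC and 290 and 295 in shMETTL14, up by 0.51 (SE 0.109, edgeR adjusted p 4.2e-04). Both were called in the 12 alternative fits. APAF1, the scaffold of the apoptosome, and CASP9, the caspase it activates, were not called by edgeR, at -0.10 and 0.37 (edgeR adjusted p 0.30 and 0.050). CYCS and the VDAC genes have processed pseudogenes, whose reads the counting may have split or dropped.

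The channels of the outer membrane did not move together. VDAC1, the most studied of the voltage-dependent anion channels and a docking partner of BCL-xL, fell from 5351 and 5301 counts to 1609 and 1642. This was -1.70 on the log2 scale (SE 0.0440, edgeR adjusted p 1.2e-17), and 30.7% of the control level remained. Over all tested genes, 2.88% had an absolute change at least as large. Among those with at least 20 CPM, 0.26% had a larger one. VDAC2, which retains BAK at the mitochondrion, and VDAC3 were called higher in the same fit at 0.27 and 0.38. Of 7 inhibitor-of-apoptosis genes and their antagonists, 1 was called, BIRC2 at 0.14 (SE 0.0519, edgeR adjusted p 0.024), and the list median was 0.05. Among all tested genes 52.5% were called, and 66.4% among those with at least 20 CPM. BIRC3 had only 15 to 29 counts per library and DIABLO 108 to 185. XIAP, BIRC5, BIRC6 and HTRA2 had more counts and were not called either. The exons of DIABLO overlap those of 3 other gene entries, among them a second entry of that name on the same strand. Its count may therefore understate its level, and the effect of the overlap was not tested.

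**Figure D4:**
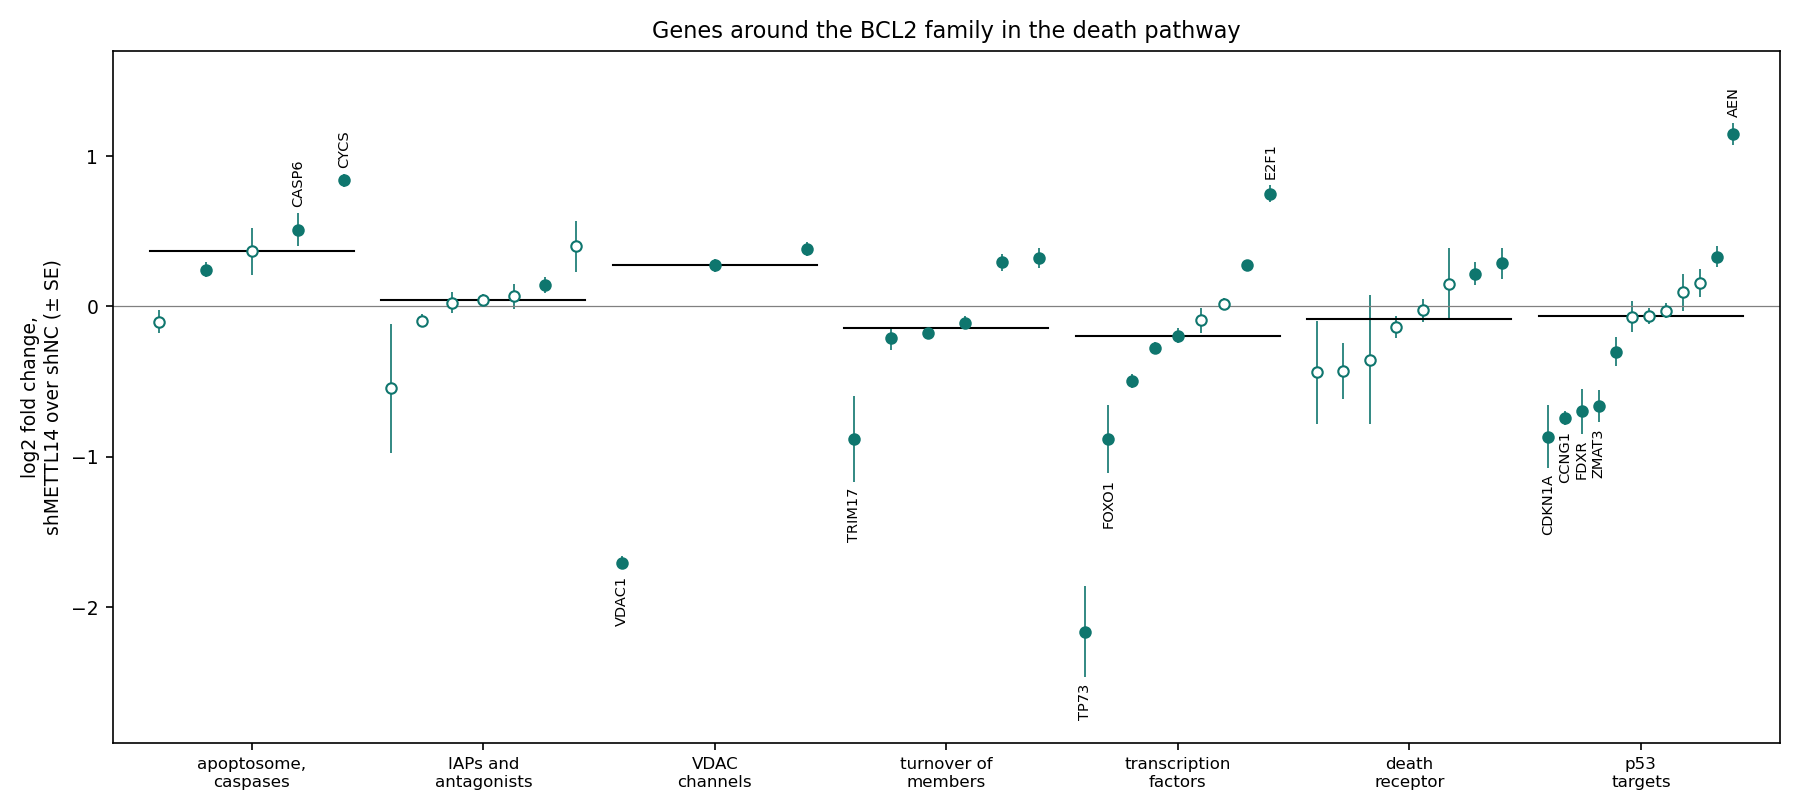
Log2 fold change of shMETTL14 over shNC (vertical axis, with SE bars) for the tested genes of 7 lists around the BCL2 family, ordered by value within a list. Filled points had an edgeR adjusted p under 0.05, horizontal bars are list medians, and called genes with an absolute value of at least 0.5 are named. CYCS and CASP6 lie above 0, VDAC1 and TP73 far below.

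Upstream, the lists were mixed, and their counts are again to be read beside the 52.5% called among all tested genes and the 66.4% among those with at least 20 CPM. Of 6 genes that control the stability of member proteins, 6 were called, 2 higher and 4 lower, with a median of -0.14. MARCHF5, a ubiquitin ligase of the outer membrane, had a log2 fold change of 0.29 (SE 0.0574, edgeR adjusted p 1.8e-04), and TRIM17, a ligase for MCL1, had -0.88 on 53 and 49 against 30 and 25 counts. The TRIM17 call was lost with DESeq2 (-0.89), without shNC library 1 (-0.86) and without shMETTL14 library 2 (-0.76). Of 10 transcription factors that act on members, 9 were tested and 7 called, 2 higher and 5 lower. E2F1 had a log2 fold change of 0.75 (SE 0.0570, edgeR adjusted p 3.6e-10). TP73, a p53 homologue, had 68 and 77 counts in shNC and 13 and 19 in shMETTL14, a log2 fold change of -2.16 (SE 0.302, edgeR adjusted p 3.1e-06). FOXO1 had -0.88, and -0.62 without shNC library 1, where it was not called.

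Of 12 p53 targets outside the family, 7 were called, 2 higher and 5 lower, with a median of -0.07. CCNG1 had the smallest adjusted p at a log2 fold change of -0.74 (SE 0.0455, edgeR adjusted p 1.2e-11), and CDKN1A, FDXR and ZMAT3 had -0.87, -0.70 and -0.66. AEN, a nuclease that p53 induces in apoptosis, had 462 and 456 counts in shNC and 1028 and 992 in shMETTL14, up by 1.15 on the log2 scale. The p53 targets among the members, BAX, BBC3 and PMAIP1, were likewise not of 1 direction. In the death receptor list, 8 of 10 genes were tested, 2 called higher and 0 lower by edgeR, and the median was -0.08. TRADD, at -0.43 (edgeR adjusted p 0.059), was lower at an unadjusted p under 0.05 and was called by limma, and DESeq2 called 0 lower. FADD, the adaptor, had the smallest adjusted p of that list at 0.22 (SE 0.0771, edgeR adjusted p 0.021). CASP8, often silenced in neuroblastoma, had 60 and 49 counts in shNC and 54 and 66 in shMETTL14, and was chosen for mention after its values were seen. Over the 7 lists, 29 of 50 tested genes were called, 14 higher and 15 lower, where 52.5% of all tested genes were called.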

How the data were processed

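Total RNA of 4 libraries was prepared with an mRNA-seq kit and sequenced as paired ends on an Illumina NovaSeq. The deposited table holds raw counts of reads per gene. The submitters' processing notes name HISAT2 2.1.0, StringTie 1.3.6, HTSeq 0.13.5, edgeR and the GRCh38 build. Neither the release of the gene annotation nor the strand mode of the counting is given in the sources used here. Lines for reads in no gene, 19.1% to 19.9% of a library, were left out.

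Counts were fitted here with edgeR 4.0.16 in R 4.3.3 (TMM scaling, filterByExpr with a minimum count of 10, quasi-likelihood F-test) over 16309 genes, with Benjamini-Hochberg adjustment over all of them and a threshold of 0.05. The fit was tested on simulated data. Alternatives were other scalings and filters, DESeq2 1.42.0, limma 3.58.1 (voom), a replicate block and leaving out each library. Symbols came from the reference name table, which matched 60401 of 60671 identifiers. Lengths, positions and sequences came from GENCODE 29. Outside the members, genes were named where called with an absolute log2 fold change of at least 0.5 or with the smallest adjusted p of a list, and all family genes were named. APAF1, CASP9, VDAC2, VDAC3, TRADD and CASP8 were named outside this rule. So were some cell markers and genes that overlap a family gene. Members and lists were chosen with earlier results of these data known. Same-numbered libraries did not deviate together (Pearson r -0.0018 across genes, which are not independent replicates). Replicates of shNC and of shMETTL14 differed by more than sampling noise. Certain genes of the lists are not reported here and are left out of the list counts.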

Additional observations from a re-analysis of the deposited data

How the results depend on the processing

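Over the members, 102 of 120 alternative values kept direction and side of the threshold, 17 lost the call and 1 changed sign (BBC3, which ranged from -0.17 without shNC replicate 1 to 0.36 without shNC replicate 2). DESeq2 called 5 members instead of 9, beside 36.9% of all tested genes instead of 52.5%. Leaving out a library lowered the number of members called in some fits, and that of genes over the whole table in each. The difference between anti-apoptotic and pro-apoptotic medians ranged from -0.167 to 0.0146 when a library was left out. The cause of these changes was not tested. Over the tested genes with a mean of at least 20 CPM, upper quartile scaling shifted the log2 fold changes by a median of -0.0676. It split the calls over all tested genes into 3550 higher and 4961 lower, against 4438 and 4123. Library size alone shifted the same log2 fold changes by a median of -0.0451, with 3812 higher and 4671 lower over all tested genes. With a replicate block, 8926 genes and 9 members were called, METTL14 stood at -1.26 and the difference between the sides at 0.0063. The numbers mark no shared culture in the labels. With 2 libraries a group, changes in genes of few counts, such as BBC3, BOK and HRK, are measured loosely.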
